A study of Schizosaccharomyces pombe with 21 samples.

Results

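Fission yeast (Schizosaccharomyces pombe) genes for the subunits and effector kinases of the target of rapamycin (TOR) complexes were followed while cells starved of phosphate, either with the drug cycloheximide or without it. The 10 genes were chosen by name: tor2, mip1, toc1 and tco89 of TOR complex 1, tor1, ste20 and sin1 of TOR complex 2, and the kinases gad8, sck1 and psk1. All 10 were among the 6988 genes of the deposited count table, and all 10 passed the filter on low counts that left 6392 genes for testing. The rule that picks them goes by gene name and uses no measured value, but the 10 genes were chosen with earlier results of these data known.

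RNA-seq of polyadenylated RNA was made from 21 libraries of strain AGP72, of mating type h-. The 7 groups held 3 libraries each. In 3 groups, cells were starved for 2, 4 or 8 h in ePMGT(-PO4) medium with cycloheximide, which stops translation elongation, at 100 µg/ml. In 3 groups, cells were starved for the same times in the same medium without drug. In the remaining group, the 0 h group, cells in log phase were taken from YES medium without drug. The strain, mating type and RNA fraction were thus the same in every group. The change of medium came with the loss of phosphate, so that both cannot be told apart in any comparison with 0 h. No group received cycloheximide with phosphate present, and the comparisons of cycloheximide with 0 h therefore hold starvation, medium and drug together. The 3 libraries of a group are labelled as biological replicates.

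TOR is a large protein kinase that works in a pair of complexes. TOR complex 1 promotes growth, ribosome production and translation when nutrients are plentiful and restrains autophagy, and in fission yeast its kinase is Tor2. TOR complex 2 is built around the related kinase Tor1 and acts through the kinase Gad8 in stress resistance, sexual differentiation and nutrient responses. The kinases Sck1 and Psk1 act downstream of TOR complex 1, and Psk1 is a kinase of ribosomal protein S6.

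Levels are given as CPM (counts scaled to a common library total) on library sizes scaled with TMM, a factor per library that evens out differences in composition. Total counts per library ran between 22079413 and 33563867, and each of the 10 genes had between 1643 and 9131 counts in every library. Within groups, the coefficient of variation of the 10 genes lay between 0.365% and 6.98%, with a median of 2.52%. The libraries of 2 groups did not overlap for between 71.5% and 89.8% of all genes tested, depending on the comparison. Separate groups are thus common among all genes. A gene was called when its adjusted p, from edgeR's quasi-likelihood test with Benjamini-Hochberg adjustment over all 6392 genes, was below 0.05 and its change was at least 2-fold, and "rose" and "fell" are kept for such calls. "Higher" and "lower" mark an adjusted p below 0.05, below 2-fold unless a call is stated, and changes are log2 fold changes ± SE with 3 libraries a group. The phosphate-responsive gene pho1, an acid phosphatase, had 28693 ± 1832 CPM at 8 h without drug and 1591 ± 115 CPM at 0 h (SD, n = 3 each). CPM is a share of the polyadenylated RNA of a culture, so fewer cells with a transcript and less transcript per cell cannot be told apart.

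**Figure D1:**
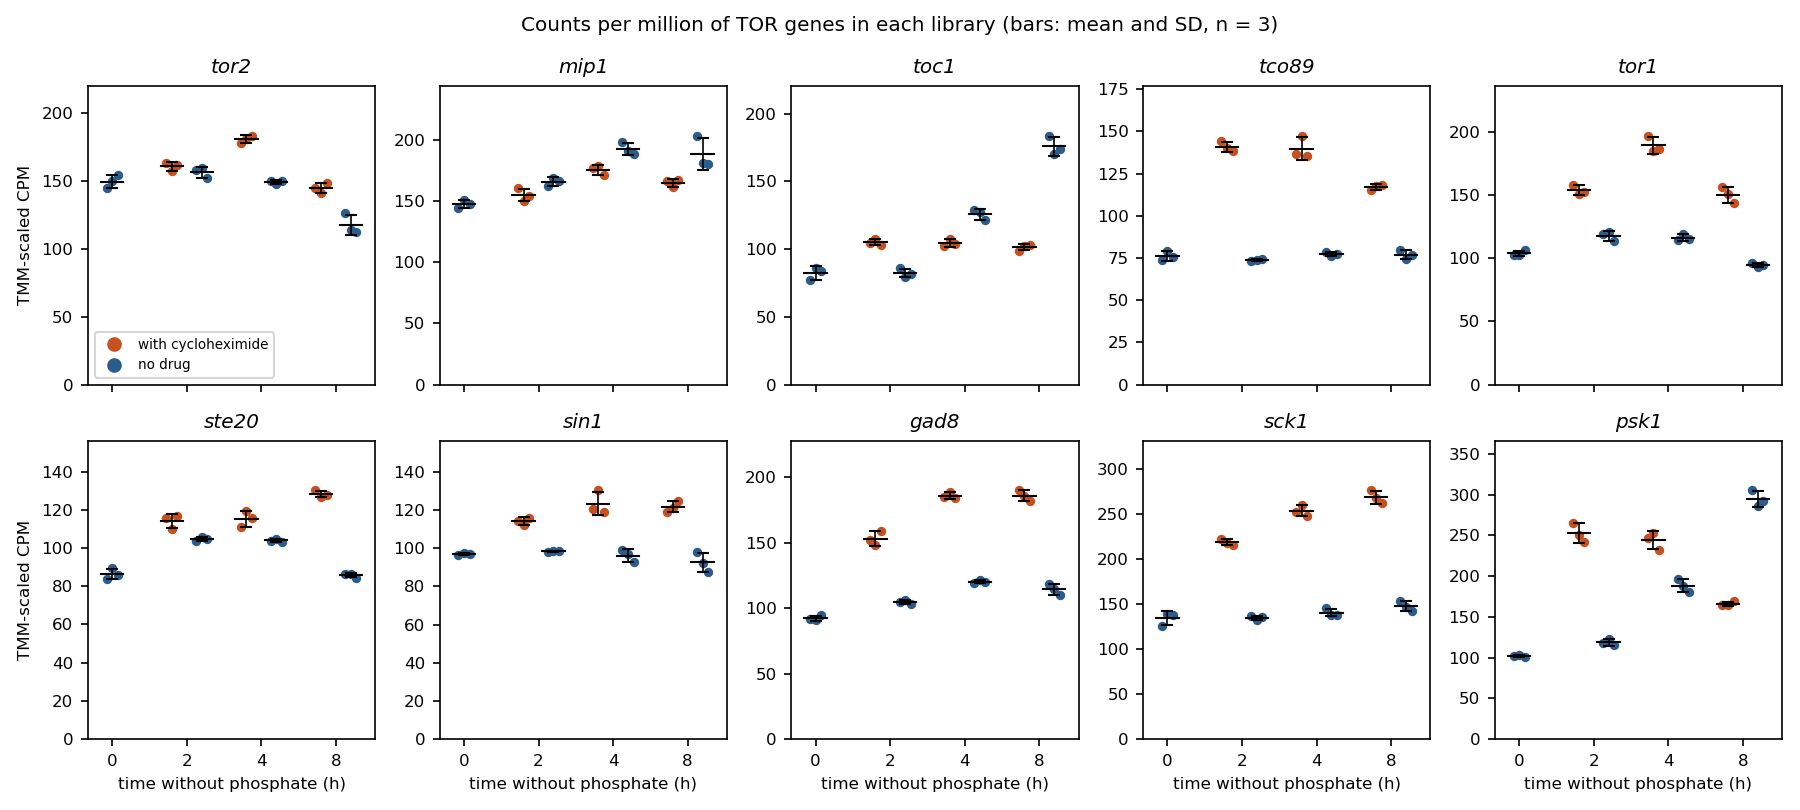
Level of each of the 10 genes in CPM in the 21 libraries. Each panel is a gene, points are libraries and lines are group means, and the psk1 panel spans 102 CPM at 0 h and 295 CPM at 8 h without drug as group means.

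Phosphate starvation without drug changed few of these genes by 2-fold. At 8 h, psk1 and toc1 rose above 0 h, and the other 8 genes stayed under the 2-fold call. At 2 h and at 4 h, 0 of 10 genes were called with edgeR, 0 with DESeq2, and 5 and 6 had an unadjusted p below 0.05 in edgeR. At any fold, 5 of 10 differed at 2 h and 6 at 4 h, all of them higher, and 5 were higher and 2 lower at 8 h. Over all genes tested, 3.94% were called higher at 2 h, 14.2% at 4 h and 19% at 8 h, and 1.81%, 13.9% and 15.6% were called lower at those times. At any fold, 30.5%, 41.6% and 43.3% of all genes tested were higher, and 34.6%, 42.1% and 43.3% were lower. The median change of the 10 genes was 0.12 at 2 h, 0.22 at 4 h and 0.08 at 8 h, beside -0.02, -0.00 and -0.01 over all genes tested. The 2 of 10 genes called higher at 8 h are thus a share near that of all genes.

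Starvation with cycloheximide left levels above 0 h for nearly all 10 genes, mostly by less than 2-fold. At any fold, 9 of 10 genes were higher at 2 h with drug, 10 at 4 h with drug and 9 at 8 h with drug. The exceptions were mip1 at 2 h and tor2 at 8 h, which missed the threshold. The mip1 value of 0.07 passed it under 5 alternatives, at 0.13 with RLE size factors (edgeR adjusted p = 0.00775), and the authors' deposited table gives it an adjusted p of 0.0071. Over those alternatives its adjusted p ran between 9.6e-06 with library size alone and 0.0227 with a stricter filter on low counts. The tor2 value at 2 h with drug, 0.11, missed the threshold without 0 h replicate 1 (edgeR adjusted p = 0.0847) and without 2 h cycloheximide replicate 1 (edgeR adjusted p = 0.0535). Of all genes tested, 41%, 40.8% and 38.9% were higher at these times at any fold, and 46%, 45.7% and 45.3% were lower. The median change of the 10 genes was 0.48, 0.64 and 0.55, beside -0.05, -0.07 and -0.06 over all genes tested. At 2-fold, psk1 was called at 2 h, psk1 and gad8 at 4 h, and gad8 and sck1 at 8 h. The share of all genes called higher at 2-fold was 17%, 14.8% and 12.6%, and the share called lower was 14.5%, 14.8% and 14.1%. All 6 comparisons with 0 h share the same 3 libraries at 0 h, so that their values are not independent of each other.

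**Figure D2:**
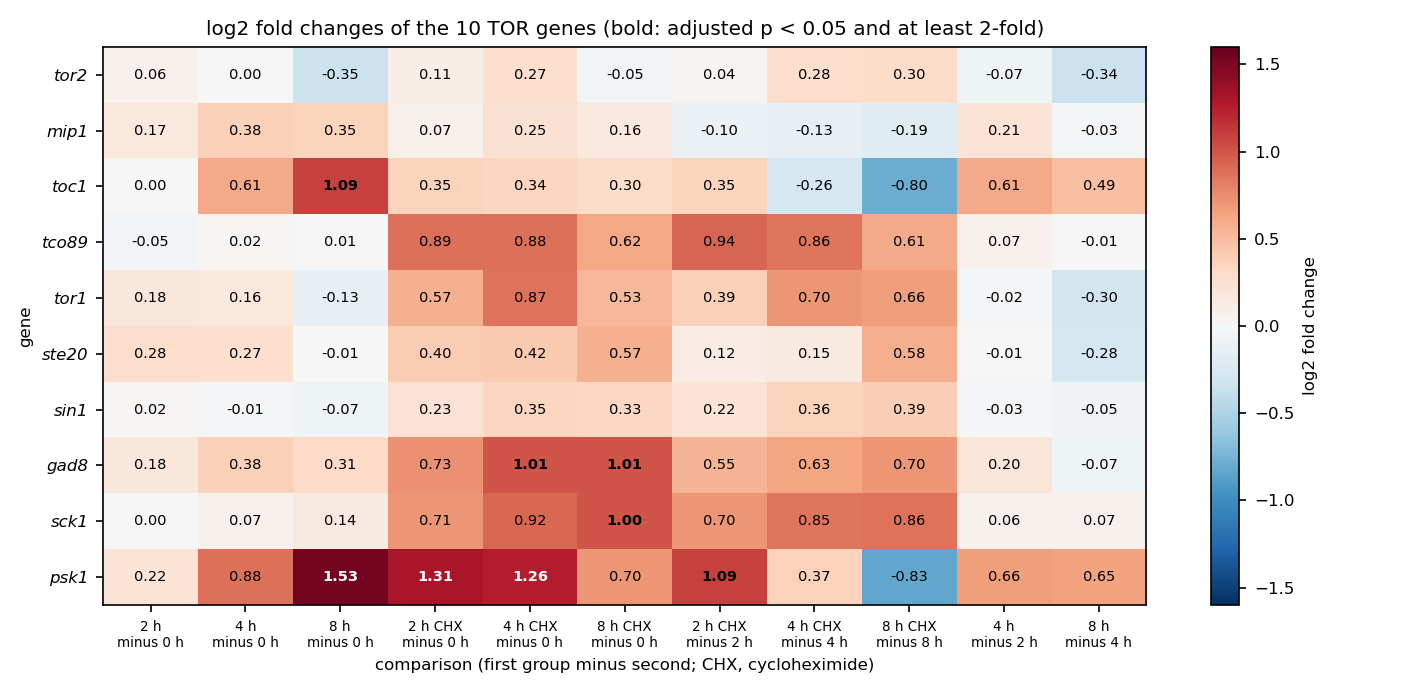
Log2 fold change of the 10 genes (rows) in the tested comparisons (columns), with colour for direction and size. The highest value against 0 h is 1.53 for psk1 at 8 h without drug, and the values for cycloheximide against 0 h are above 0 for every gene except tor2 at 8 h.

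Among the subunits of TOR complex 1, toc1 (SPBP18G5.03), a subunit that fission yeast TOR complex 1 holds beside the conserved ones, rose by 8 h of starvation without drug and had the widest range of the 4. Its libraries had 76.9, 86.3 and 84.0 CPM at 0 h, 85.9, 79.6 and 81.8 CPM at 2 h, 129, 127 and 121 CPM at 4 h and 184, 170.0 and 174 CPM at 8 h. The 2 h libraries lay within the range of the 0 h libraries, while those of 4 h and 8 h lay above them and apart from each other. With cycloheximide, the libraries had 105, 107 and 103 CPM at 2 h, 102, 108 and 104 CPM at 4 h and 98.7, 102 and 103 CPM at 8 h. These drug libraries lay above every 0 h library, and neighbouring drug groups overlapped. The gene rose at 8 h without drug, by 1.09 ± 0.04 (edgeR adjusted p = 1.1e-16), and was higher at 4 h, by 0.61 ± 0.04 (edgeR adjusted p = 7.1e-12). With cycloheximide its change against 0 h was 0.35 at 2 h, 0.34 at 4 h and 0.30 at 8 h, higher at each time. Set against starvation of the same length without drug, toc1 was higher with cycloheximide at 2 h (0.35 ± 0.04, edgeR adjusted p = 9.2e-08) and lower at 8 h (-0.80 ± 0.04, edgeR adjusted p = 2.2e-14). The difference between these drug effects, 8 h minus 2 h, was -1.15 ± 0.06 (edgeR adjusted p = 5.7e-14), and this difference was called.

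The gene tco89 (SPCC162.12), whose product is a TOR complex 1 subunit named for its budding yeast counterpart, was higher than at 0 h with cycloheximide at each time. Its libraries had 73.8, 79.4 and 75.6 CPM at 0 h, 73.2, 73.8 and 74.2 CPM at 2 h, 78.3, 76.3 and 77.2 CPM at 4 h and 79.6, 74.4 and 76.6 CPM at 8 h. Each of the starved groups without drug overlapped the 0 h libraries, with changes of -0.05, 0.02 and 0.01 that missed the threshold (edgeR adjusted p = 0.267, 0.618 and 0.761). With library size alone in place of TMM, under which the all-gene median is 0.20 at 4 h and 0.19 at 8 h, tco89 was higher without drug at 4 h (0.23, edgeR adjusted p = 2.8e-07) and 8 h (0.22, edgeR adjusted p = 5.1e-07). With cycloheximide, the libraries had 144, 140.0 and 139 CPM at 2 h, 137, 147 and 135 CPM at 4 h and 115, 118 and 118 CPM at 8 h. All 9 drug libraries lay above all 12 libraries without drug. Of all genes tested, 87.1%, 89.8% and 88% had no overlap between drug and no drug at 2, 4 and 8 h. These shares are for 3 against 3 libraries of the same time, in either direction. The share of all genes with 9 drug libraries above the 12 others was not computed. At 2 h, tco89 was higher with cycloheximide than without by 0.94 ± 0.04 (edgeR adjusted p = 1.6e-16), which is 1.91-fold and short of a call. The drug effect was 0.86 at 4 h and 0.61 at 8 h, and the 8 h effect minus the 2 h effect was -0.33 ± 0.05 (edgeR adjusted p = 4.1e-06). In the levels of toc1 and tco89 the orders were thus unlike: for toc1 the 8 h group without drug stood first, and for tco89 the 3 drug groups stood first.

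The kinase gene tor2 (SPBC216.07c) and mip1 (SPAC57A7.11), which encodes the Raptor-type subunit that binds substrates, varied least in this complex. The highest group mean was 1.54 times the lowest for tor2 and 1.30 times for mip1. The libraries of tor2 had 144, 149 and 154 CPM at 0 h, 158, 159 and 152 CPM at 2 h, 149, 148 and 149.8 CPM at 4 h and 126, 113 and 112 CPM at 8 h. Its 8 h libraries lay below all others of the time course, and tor2 was lower at 8 h than at 0 h (-0.35 ± 0.04, edgeR adjusted p = 2.1e-08). With cycloheximide, tor2 had 163, 157 and 162 CPM at 2 h, 178, 181 and 183 CPM at 4 h and 144, 141 and 148 CPM at 8 h. The 4 h drug libraries lay above those of every other group, and the 8 h drug libraries overlapped 0 h, with a change of -0.05 ± 0.04 (edgeR adjusted p = 0.244). Between the 4 h drug group at the top and 8 h without drug at the bottom, the order was 2 h with drug, 2 h, 0 h and 4 h without drug, and 8 h with drug, each overlapping the next. For mip1, group means lay between 192 ± 5.14 CPM at 4 h without drug and 148 ± 3.51 CPM at 0 h (SD, n = 3 each). It was higher than at 0 h without drug at 2, 4 and 8 h, by 0.17, 0.38 and 0.35, and it was lower with cycloheximide than without at each time, with changes of -0.10, -0.13 and -0.19. In order of level, 4 h and 8 h without drug overlapped at the top, followed by 4 h with drug, by 2 h without and 8 h with drug, which overlapped, and by 2 h with drug and 0 h, which overlapped. The mip1 drug effect at 2 h missed the threshold under several alternatives, among them the fit with the compared groups only (-0.07, edgeR adjusted p = 0.0766). Over those alternatives its adjusted p ran up to 0.217, with DESeq2. Among the 10 genes, mip1 was the only one lower with cycloheximide at all 3 times.

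For TOR complex 2, the kinase gene tor1 (SPBC30D10.10c) had higher levels in every library with cycloheximide than in any library without it. The share of all genes tested with this separation was not computed. Within the same time, most of them had no overlap between drug and no drug. Its libraries had 103, 103 and 106 CPM at 0 h, 119, 121 and 113 CPM at 2 h, 115, 119 and 115 CPM at 4 h and 96.2, 93.3 and 95.1 CPM at 8 h. The 2 h and 4 h libraries lay above those of 0 h, and the 8 h libraries lay below them. With cycloheximide, tor1 had 158, 151 and 153 CPM at 2 h, 197, 185 and 187 CPM at 4 h and 156, 151 and 144 CPM at 8 h. The 4 h drug libraries were the highest, and those of 2 h and 8 h overlapped. Its change against 0 h with drug was 0.57 at 2 h, 0.87 ± 0.04 (edgeR adjusted p = 8.9e-16) at 4 h and 0.53 at 8 h. Without drug it was higher at 2 h (0.18) and at 4 h (0.16) and lower at 8 h (-0.13 ± 0.04, edgeR adjusted p = 0.00215). With library size alone in place of TMM, the 8 h value turned to 0.07 (edgeR adjusted p = 0.103), while the median of all genes moved to 0.19. The values with TMM, size factors of another method (RLE), DESeq2 and the other alternatives were all below 0.

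The genes ste20 (SPBC12C2.02c), which in fission yeast encodes the Rictor-type subunit of TOR complex 2, and sin1 (SPAPYUG7.02c), another subunit specific to that complex, had narrow ranges. Group means of ste20 lay between 128 ± 1.71 CPM at 8 h with cycloheximide and 85.8 ± 1.18 CPM at 8 h without drug (SD, n = 3 each). Its drug libraries at 8 h had 130.2, 127 and 128 CPM, against 86.6, 86.5 and 84.5 CPM without drug and 83.9, 89.3 and 85.9 CPM at 0 h. The 8 h libraries without drug overlapped those of 0 h, and the 8 h drug libraries lay above both. At 8 h, ste20 was higher with cycloheximide by 0.58 ± 0.03 (edgeR adjusted p = 1.0e-13), and the 8 h effect minus the 2 h effect was 0.46 ± 0.05 (edgeR adjusted p = 5.6e-09). Below 8 h with drug in order of level, the other drug groups overlapped each other, as did 2 h and 4 h without drug, and 0 h and 8 h without drug. Without drug it was higher than at 0 h at 2 h (0.28) and 4 h (0.27), and its 8 h value was -0.01 (edgeR adjusted p = 0.824). Levels of sin1 lay between 123 ± 6.14 CPM at 4 h with cycloheximide and 92.5 ± 5.02 CPM at 8 h without drug (SD, n = 3 each). Its values without drug against 0 h were 0.02, -0.01 and -0.07 and missed the threshold, and with cycloheximide it was higher than at 0 h at all times, by 0.23, 0.35 and 0.33. With library size alone, sin1 was also higher without drug at each time (0.10, 0.19 and 0.14), and without 8 h replicate 1 it was lower at 8 h (-0.11, edgeR adjusted p = 0.0158). For sin1 the 4 h and 8 h drug groups overlapped at the top, followed by 2 h with drug, by 2 h without drug and by 0 h, 4 h and 8 h without drug, each of the last overlapping the next. The signs of several of these small values of sin1, ste20 and tor2 depend on the scaling.

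**Figure D3:**
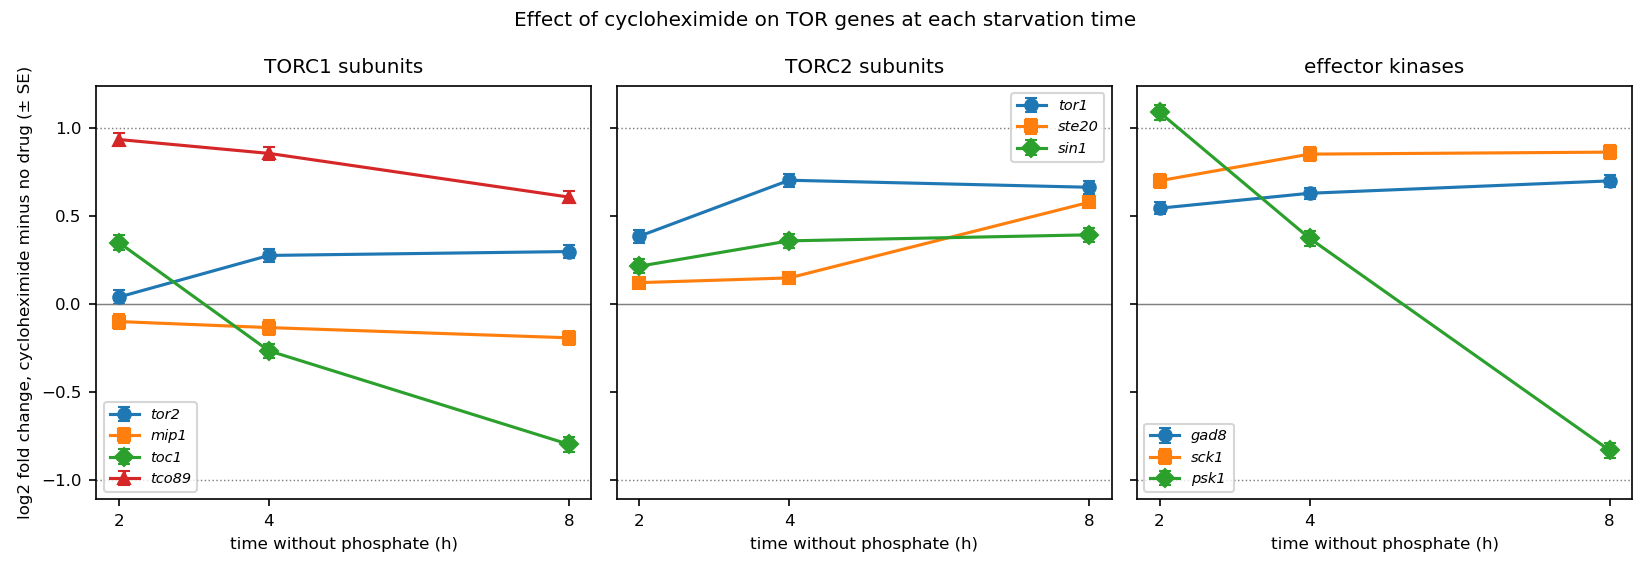
Log2 fold change with cycloheximide against the same time without drug, ± SE, for each gene at 2, 4 and 8 h of starvation. The drug effect of psk1 is 1.09 at 2 h and -0.83 at 8 h, and that of toc1 is 0.35 at 2 h and -0.80 at 8 h, whereas it is above 0 at each time for the other genes except mip1.

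Among the effector kinases, gad8 (SPCC24B10.07), which encodes the AGC kinase that TOR complex 2 phosphorylates, rose with cycloheximide at 4 h and 8 h. Its libraries had 91.8, 90.6 and 94.5 CPM at 0 h, 105, 106 and 103 CPM at 2 h, 119, 121 and 120.1 CPM at 4 h and 118, 114 and 110.3 CPM at 8 h. With cycloheximide they had 152, 148 and 159 CPM at 2 h, 185, 189 and 184 CPM at 4 h and 189.9, 186 and 182 CPM at 8 h. Every group without drug was separate from every other, and the 4 h and 8 h drug groups overlapped each other above all the rest. The change against 0 h was 1.01 ± 0.03 (edgeR adjusted p = 1.0e-17) at 4 h and 1.01 ± 0.03 (edgeR adjusted p = 1.2e-17) at 8 h with drug. These values stand just over 2-fold. The call at 4 h was lost without 0 h replicate 2 (0.996) and without 4 h cycloheximide replicate 2 (0.996), and the call at 8 h without 0 h replicate 2 (0.995) and without 8 h cycloheximide replicate 1 (0.99). Starvation without drug left gad8 higher than at 0 h by 0.18, 0.38 and 0.31 at 2, 4 and 8 h. The drug effect at the same time was 0.55, 0.63 and 0.70, higher at each time.

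The gene sck1 (SPAC1B9.02c), for an AGC kinase downstream of TOR complex 1, had levels near those of 0 h without drug and above them with cycloheximide. Its libraries had 125, 139 and 138 CPM at 0 h, 136, 132 and 135 CPM at 2 h, 145, 138 and 138 CPM at 4 h and 154, 147 and 142 CPM at 8 h. With cycloheximide they had 222, 218 and 216 CPM at 2 h, 252, 260.2 and 248 CPM at 4 h and 276, 268 and 262 CPM at 8 h. The 9 drug libraries lay above the 12 others, a separation whose share among all genes tested was not computed. The 3 drug groups did not overlap each other. With drug, sck1 was higher than at 0 h by 0.71 at 2 h and 0.92 at 4 h and rose at 8 h by 1.00 ± 0.04 (edgeR adjusted p = 3.0e-16). That call at 8 h rests on a value at the 2-fold line, and it was lost without 0 h replicate 1 (0.95), without 8 h cycloheximide replicate 1 (0.98) and when a stricter filter was set on low counts (0.996). Without drug, the changes of 0.00 at 2 h and 0.07 at 4 h missed the threshold, and sck1 was higher at 8 h by 0.14 ± 0.04 (edgeR adjusted p = 0.00273). The 4 h value passed the threshold under 5 alternatives, at 0.10 with RLE size factors (edgeR adjusted p = 0.033), and the authors' deposited table gives it an adjusted p of 0.0334. Over those alternatives its adjusted p ran between 6.6e-08 with library size alone and 0.0482 with only the groups compared. The drug effect at the same time was 0.70, 0.85 and 0.86.

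The S6 kinase gene psk1 (SPCC4G3.08) had the widest range of the 10. Its libraries had 102, 103 and 101 CPM at 0 h, 118, 123 and 115 CPM at 2 h, 196, 188 and 180.0 CPM at 4 h and 305, 286 and 293 CPM at 8 h. The groups without drug did not overlap, and each later time lay above the one before. With cycloheximide, psk1 had 266, 251 and 242 CPM at 2 h, 247, 253 and 232 CPM at 4 h and 164, 164 and 169 CPM at 8 h. The order ran the other way here, with the 2 h and 4 h drug groups overlapping and the 8 h drug group below both. The steps between drug groups were not tested. Against 0 h, psk1 rose at 8 h without drug by 1.53 ± 0.04 (edgeR adjusted p = 3.5e-19), which is 2.89-fold. It rose with cycloheximide at 2 h by 1.31 ± 0.04 (edgeR adjusted p = 1.0e-17) and at 4 h by 1.26 ± 0.04 (edgeR adjusted p = 2.3e-17). At 8 h with drug it was higher by 0.70, below 2-fold.

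Set against starvation of the same length without drug, psk1 rose with cycloheximide at 2 h and was lower with it at 8 h. The drug effect was 1.09 ± 0.04 (edgeR adjusted p = 1.9e-16) at 2 h, 0.37 at 4 h and -0.83 ± 0.04 (edgeR adjusted p = 1.3e-14) at 8 h. The 8 h effect minus the 2 h effect was -1.92 ± 0.06 (edgeR adjusted p = 8.3e-18). This difference of drug effects and that of toc1 were the 2 of 10 called, both below 0, where 19.4% of all genes tested were called below 0 and 12.6% above 0. At any fold, this difference was above 0 for 6 of the 10 genes and below 0 for 3, beside 42.4% and 39.4% of all genes. Without drug, psk1 was higher at 4 h than at 2 h by 0.66 and at 8 h than at 4 h by 0.65. At 4 h against 0 h its value of 0.88 was short of a call, and with library size alone it became a call at 1.09, with the median of all genes at 0.20.

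Counted over all 10 genes, the drug effect at the same time left 8 genes higher and 1 lower at 2 h, 8 higher and 2 lower at 4 h, and 7 higher and 3 lower at 8 h. Of all genes tested, 41.5%, 43.7% and 43.2% were higher at any fold, and 44.2%, 45.8% and 45.9% were lower. At 2-fold, psk1 at 2 h was the only gene of the 10 called, while 15.8% of all genes were called higher at 2 h, 19.9% at 4 h and 17.1% at 8 h, and 13.5%, 20.9% and 20.8% were called lower. With edgeR and with DESeq2, 0 of 10 were called at 4 h and 0 of 10 at 8 h. All 10 had an adjusted p below 0.05 in edgeR at both times, and the largest effects were 0.86 for tco89 at 4 h and 0.86 for sck1 at 8 h. The median drug effect over the 10 genes was 0.37, 0.37 and 0.49, beside -0.04, -0.04 and -0.03 over all genes. For the steps of starvation without drug, 0 of 10 were called by edgeR or DESeq2 at 4 h against 2 h or at 8 h against 4 h, where 14.2% and 6.56% of all genes were called. Unadjusted p-values below 0.05 in edgeR numbered 4 and 6. At any fold, 4 genes differed in the first of these steps, all higher, and 2 were higher and 3 lower in the second, beside 37.8% and 38% of all genes in the first and 35.6% and 34.5% in the second.

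Across the 7 groups, the ratio of the highest to the lowest group mean lay below the median of all genes tested, 2.70, for 9 of the 10 genes. It was 2.89 for psk1, at the 53.8th percentile of all genes tested, and 2.13 for toc1, at the 34.3rd percentile. It was 2.01 for gad8, 2.00 for sck1 and tor1, and 1.91 for tco89. The lowest ratios were those of ste20 (1.49), sin1 (1.33) and mip1 (1.30), the last at the 2.61 percentile.

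**Figure D4:**
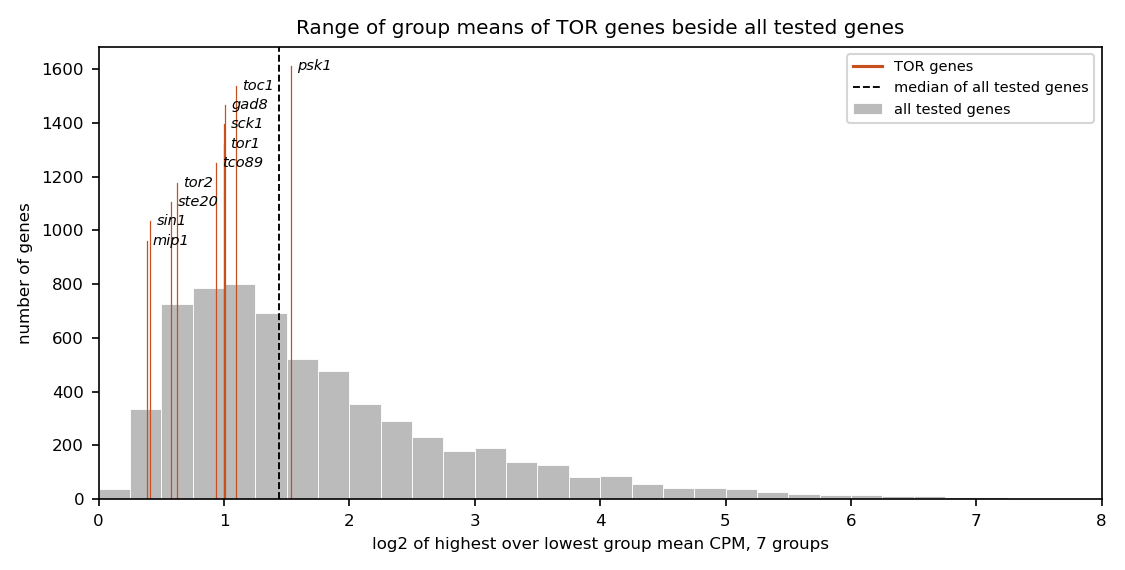
Ratio of the highest to the lowest group mean on a log2 axis for the 6392 genes tested (histogram), with the 10 genes marked. The median over all genes is 2.70, and psk1 at 2.89 is the only one of the 10 above it.

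Ratios of counts between related genes do not depend on the scaling, and they are given as a description, with pairs chosen after values had been seen. The log2 ratio of tor1 to tor2, the genes of both TOR kinases, was -0.52 at 0 h, -0.41 at 2 h, -0.35 at 4 h and -0.31 at 8 h. With cycloheximide it was -0.06 at 2 h, 0.07 at 4 h and 0.06 at 8 h, so that the drug libraries all lay above the others. For psk1 to sck1 it was -0.39, -0.18, 0.42 and 1.00 at 0, 2, 4 and 8 h without drug, and 0.21, -0.06 and -0.69 at 2, 4 and 8 h with cycloheximide. The size of such a ratio also depends on the lengths of both genes, which were not used here, and its differences between groups do not.

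The genes with the most similar profiles over the 7 groups were found by the root mean square difference of mean-centred group means of log2 CPM, among 4236 genes with a symbol. The closest was lig4, a DNA ligase, for toc1 (0.0490), lem2, an inner nuclear membrane protein, for sin1 (0.0434) and ssp2, the catalytic subunit of AMP-activated kinase, for ste20 (0.0526). For the others the closest genes were sec24 for tor2 (0.0510), ucp8 for mip1 (0.0515), mak1 for tco89 (0.0642), san1 for tor1 (0.0650), rng2 for sck1 (0.0683) and dnm1 for gad8 (0.0777). For psk1 it was rec10, at 0.121, which is the least close of the 10. Among the 10 genes themselves, ste20 and sin1 (0.103) and gad8 and sck1 (0.107) were the closest pairs.

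Other genes of the pathway were taken from a list of 46, all of which were tested. It held 3 further subunits, 23 genes upstream of TOR complex 1, 3 genes upstream of TOR complex 2 and 17 downstream genes. Without drug, 2 of 46 were called at 2 h, both higher, 4 were called higher and 3 lower at 4 h, and 5 higher and 3 lower at 8 h. Of all genes tested, 3.94%, 14.2% and 19% were called higher and 1.81%, 13.9% and 15.6% lower at these times. With cycloheximide, 7 were called higher and 1 lower than at 0 h at 2 h, 9 higher and 2 lower at 4 h, and 8 higher and 1 lower at 8 h. Beside these stand 17%, 14.8% and 12.6% of all genes called higher and 14.5%, 14.8% and 14.1% called lower.

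The further subunits differed in direction. The gene bit2, listed as a subunit of TOR complex 2, rose to 42.6 ± 1.53 CPM at 8 h without drug, against 0.826 ± 0.152 CPM at 0 h (SD, n = 3 each), a change of 5.67 ± 0.13 (edgeR adjusted p = 1.5e-20). With cycloheximide it had 19.7 ± 0.759 CPM at 8 h, and there it fell below 8 h without drug (log2 fold change -1.11 ± 0.08, edgeR adjusted p = 1.4e-11). The gene bit61, of the same family, fell to 42.1 ± 0.471 CPM at 8 h without drug, against 99.1 ± 2.73 CPM at 0 h (SD, n = 3 each), a change of -1.24 ± 0.05 (edgeR adjusted p = 1.7e-16). Under cycloheximide at 8 h it had 82.7 ± 1.79 CPM. The gene wat1, whose product is shared by both complexes, had 67.3 ± 3.78 CPM at 8 h without drug and 84.4 ± 1.49 CPM at 0 h (SD, n = 3 each).

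Of the 23 genes upstream of TOR complex 1, pib2, which encodes a zinc finger protein of the FYVE type, was the only one called against 0 h without drug, where it fell at 4 h (log2 fold change -1.19 ± 0.09, edgeR adjusted p = 3.4e-11). With cycloheximide pib2 rose against 0 h by 2.13 at 2 h, 2.01 at 4 h and 1.71 at 8 h. The gene npr3, a part of a complex that restrains TOR complex 1, fell with cycloheximide against 0 h by 1.13 at 4 h and 1.32 at 8 h on the log2 scale, and seh1 fell by 1.10 at 2 h and 1.04 at 4 h. The gene lam1, also in this list, fell at 8 h with cycloheximide against 8 h without drug (log2 fold change -1.44 ± 0.04, edgeR adjusted p = 2.0e-18). The 3 genes upstream of TOR complex 2 had changes against 0 h between -0.85 and 0.50 over the 6 starved groups.

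Of the 17 downstream genes, 4 were called higher and 2 lower at 8 h without drug, and 6 were called at 8 h with cycloheximide, all higher. The shares of all genes were 19% higher and 15.6% lower without drug, and 12.6% higher and 14.1% lower with cycloheximide. The genes atg1 and atg13, which start autophagy, rose at 8 h without drug by 2.14 and 1.57, and maf1, the repressor of RNA polymerase III, rose by 2.22. With cycloheximide at 8 h they rose by 1.52, 1.12 and 1.75 against 0 h. The ribosomal protein S6 genes rps601 and rps602 fell at 8 h without drug, with log2 fold changes of -3.59 ± 0.08 (edgeR adjusted p = 3.3e-21) and -4.23 ± 0.08 (edgeR adjusted p = 3.2e-22). With cycloheximide at 8 h their values against 0 h were -0.63 and -0.63, lower but below 2-fold. Both genes encode the same ribosomal protein, and whether reads were shared between them was not tested. The kinase gene cek1 and the transcription factor gene fkh2 rose against 0 h with cycloheximide, by 1.13 and 1.17 at 8 h, and were lower at 8 h without drug, with changes of -0.87 and -0.22. The gene isp7 rose by 3.28 at 8 h with cycloheximide and by 1.21 at 8 h without drug.

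**Figure D5:**
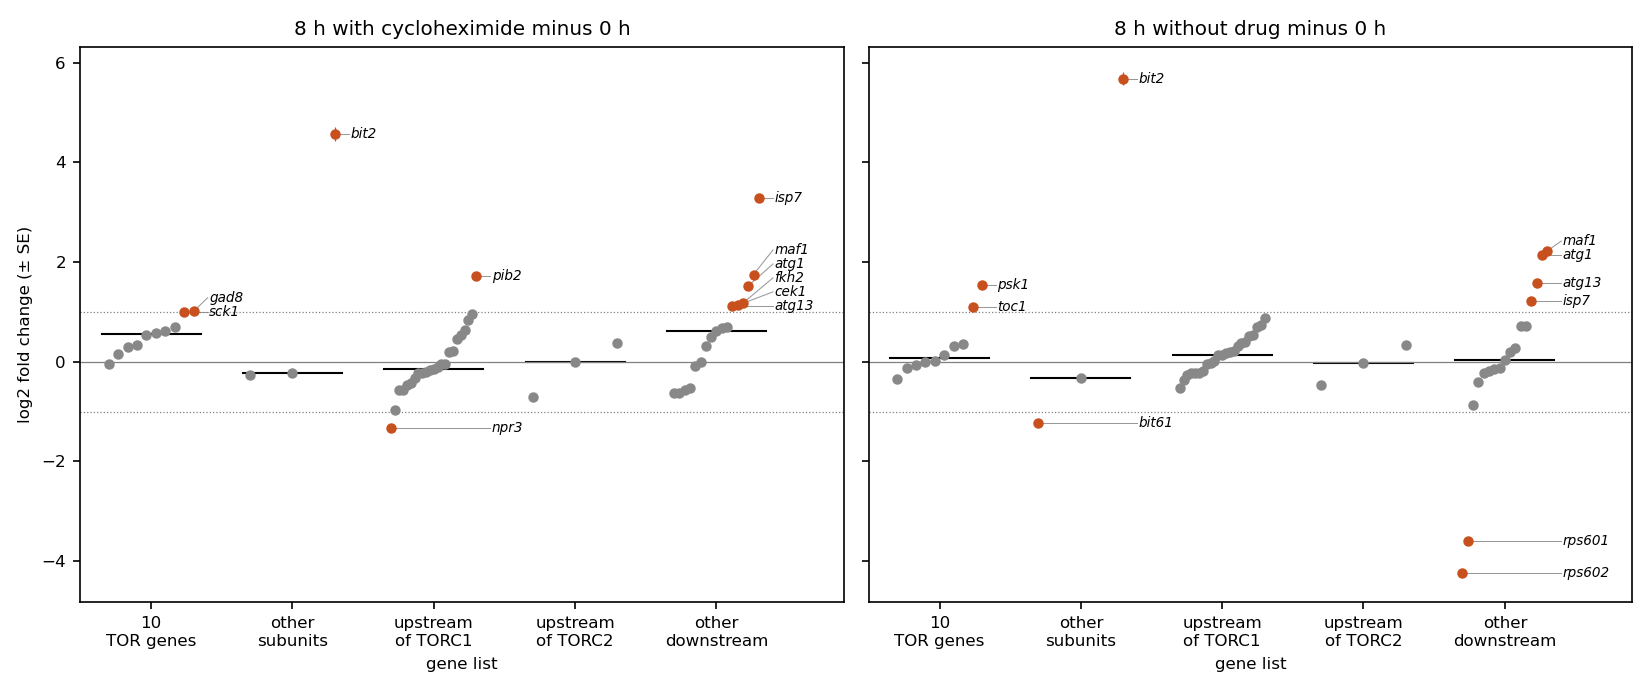
Log2 fold change ± SE of the 10 genes and of the 46 further pathway genes by list, at 8 h with cycloheximide (left) and at 8 h without drug (right), each against 0 h. Coloured and named points are called at 2-fold, black bars are list medians, and bit2 is the highest point in both panels at 4.56 with cycloheximide and 5.67 without drug.

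Protein-coding neighbours overlap 5 of the 10 genes in the RefSeq annotation, and whether reads were counted by strand is not stated, so that reads of overlapping parts may be shared. The neighbour of toc1, rpl35A02, changed by -1.30 at 8 h without drug against 0 h, and that of tco89, rsm1, by -1.47, -1.22 and -1.41 with cycloheximide at 2, 4 and 8 h. These are the opposite of the directions of toc1 and tco89. The neighbour of psk1, gyp3, had 0.27 ± 0.04 (edgeR adjusted p = 4.4e-07) at 8 h without drug. At 2 h with cycloheximide gyp3 had 1.00 ± 0.04 (edgeR adjusted p = 5.5e-17). Both values, against 0 h, have the same direction as psk1. The time courses without drug were unlike. Group means of gyp3 were 131, 201, 182 and 159 CPM at 0, 2, 4 and 8 h, and those of psk1 were 102, 119, 188 and 295 CPM. With cycloheximide the order of times was the same in both genes, highest at 2 h and lowest at 8 h. There, gyp3 had 264, 201 and 170 CPM at 2, 4 and 8 h, and psk1 had 253, 244 and 166 CPM. At 8 h with cycloheximide, ada2, the neighbour of gad8, had 33.7 ± 1.33 CPM, against 39.7 ± 0.257 CPM at 0 h, and tfa1, the neighbour of sin1, had 76.3 ± 1.59 CPM, against 74.3 ± 1.99 CPM at 0 h (SD, n = 3 each). The part of shared reads in these results was not tested. In the authors' deposited table, the log2 fold changes for psk1 and toc1 at 8 h without drug are 1.56 and 1.12, and over the 60 values of the 10 genes in the 6 comparisons with 0 h the largest absolute difference from the values computed here is 0.0631.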

How the data were processed

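RNA-seq of polyadenylated RNA was analysed in 21 libraries, grouped by the titles and treatments in the labels. The authors deposited whole-number read counts per gene, not normalized, together with 6 comparison tables of starved groups against 0 h. Per the file headers, the authors' tables hold a log2 fold change and an adjusted p-value made with DESeq2. The deposited signal per group, a mean of scaled counts, entered no result. HISAT2 2.1.0, SAMtools, HTSeq 0.10.0, DESeq and DESeq2 are named in the submitters' processing notes, with the build ASM294v2. The sources used here do not give their roles or whether counting used strand. Libraries were made with a stranded kit, per the labels.

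The deposited counts entered edgeR 4.0.16 under R 4.3.3 (quasi-likelihood test, TMM scaling, default filter on low counts, 1 fit over all 21 libraries, 12 comparisons), with Benjamini-Hochberg adjustment over 6392 of 6988 genes. The SE is the log2 fold change divided by the square root of F. Library totals of 22079413 to 33563867 counts set the counting precision. On simulated counts for 8 h minus 0 h over 6392 genes, 200 genes with high counts were changed, and the spread was taken from the fit itself. There, 50 of 50 genes changed 2.5-fold were called, and 50 of 50 changed 1.5-fold had an adjusted p below 0.05. Of the 6192 left unchanged, 11 had an adjusted p below 0.05 and 1 was called. In the data, 2209 genes were called in that comparison, and scaling with so many changed genes was not tested. No pair of replicates agreed within sampling noise, judged by a chi-square per gene. It was 23.6 and 19.7 for 8 h replicate 1 against 8 h replicates 2 and 3, and 3.66 between these. The next highest pair, 2 h cycloheximide replicates 1 and 2, had 16.3. The TMM factor of 8 h replicate 1 was 1.00, against 1.07 for the others of its group. Each gene of the chosen set had its highest 8 h level without drug in that library. Without it, mip1, sin1 and gad8 became lower at 8 h than at 4 h (-0.09, -0.09 and -0.10).

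The 10 genes, the 46 further pathway genes and the ratios were chosen with earlier results of these data known. Named genes are the 10, at most 4 called genes per pathway list and comparison with the largest changes, and the 3 tested genes closest in profile to each of the 10, of which the closest is given. The 5 overlapping neighbours, wat1 and pho1 were added to these. Symbols come from the deposited tables, where wat1 is listed as pop3, and pib2 is SPBC9B6.03, listed without a symbol. RefSeq is of another build, so it served only for neighbours, and no coordinates or sequences are given. Alternatives were library size alone or RLE size factors in place of TMM, no filter or a filter at a mean count of 100 (the stricter filter), DESeq2 1.42.0, only the groups compared, the replicate number as a block, and each library left out.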

Additional observations from a re-analysis of the deposited data

Results flagged for a closer look

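For psk1 and toc1, the effect of cycloheximide at 8 h of starvation differed from its effect at 2 h by more than 2-fold in a direct test of that difference. For psk1, the drug effect at 8 h minus that at 2 h was -1.92 on the log2 scale. For toc1 it was -1.15. In both genes the drug effect was above 0 at 2 h and below 0 at 8 h.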

How the results depend on the processing

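Over the alternatives, 1571 of 1620 values of the 10 genes kept their sign and their side of the 2-fold call, 7 lost the call, 2 gained it and 40 changed sign. Of the sign changes, 39 concerned values with an adjusted p at or above the threshold, no larger than 0.0677 in size, and the exception was tor1 at 8 h minus 0 h. At any fold, 52 values changed their side of the adjusted p threshold, 38 passing it and 14 missing it under the alternative, and 20 of the 52 did so with library size alone. The causes were not tested, except that dropping the composition factor shifts all genes together, by 0.20 for 4 h minus 0 h, 0.19 for 8 h minus 0 h, 0.18 for 8 h with cycloheximide minus 0 h, 0.12 for 4 h minus 2 h and -0.14 for the drug effect at 4 h, as medians over all genes.

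With library size alone, 1 of the 10 genes was called at 4 h minus 0 h (psk1, 1.09), and sck1 was called at 4 h with cycloheximide minus 0 h (1.03). The values that changed sign there were 0.0368 for tco89 at 2 h minus 0 h, 0.203 for tor2 and 0.193 for sin1 at 4 h minus 0 h, 0.0708 for tor1, 0.197 for ste20 and 0.137 for sin1 at 8 h minus 0 h, 0.185 for tor2 at 8 h with cycloheximide minus 0 h, and 0.0534 for tor2, 0.104 for tor1, 0.109 for ste20 and 0.0892 for sin1 at 4 h minus 2 h. For 8 of these 11 the adjusted p was then below 0.05 with the other sign, the exceptions being tco89, tor1 at 8 h and tor2 at 4 h minus 2 h. Sign changes for tor2 at 4 h minus 0 h gave 0.0261 with RLE size factors, 0.0159 with the stricter filter, 0.026 with DESeq2 and 0.007 with only the groups compared. For sin1 at 4 h minus 0 h they gave 0.0164, 0.0061 and 0.0163 with RLE, the stricter filter and DESeq2. For ste20 at 8 h minus 0 h they gave 0.0172, 0.0169, 0.0177 and 0.038 with RLE, the stricter filter, DESeq2 and only the groups compared, and ste20 at 4 h minus 2 h gave 0.0014 with the stricter filter. With only the groups compared, tor2 at 8 h with cycloheximide minus 0 h gave 0.009. With the stricter filter, 1 of the 10 genes was called at 8 h with cycloheximide minus 0 h, and 279 of all genes, against 419, were called at 8 h minus 4 h, where fewer genes were tested.

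Leaving out each library in turn gave between 1 and 2 of the 10 genes called at 4 h with cycloheximide minus 0 h, and between 0 and 2 at 8 h with cycloheximide minus 0 h. Values whose sign then varied ran between -0.0463 and 0.0341 for toc1 and between -0.0428 and 0.0298 for sck1 at 2 h minus 0 h, between -0.0269 and 0.0201 for tor2, -0.0029 and 0.0487 for tco89, and -0.0346 and 0.013 for sin1 at 4 h minus 0 h, between -0.0145 and 0.0405 for tco89 and -0.0288 and 0.0157 for ste20 at 8 h minus 0 h, between -0.0437 and 0.0024 for tor1 at 4 h minus 2 h, and between -0.0347 and 0.0157 for tco89 at 8 h minus 4 h.

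The replicate numbers were not taken to pair the samples, since not all pairs with the same number correlated above 0, though the data give a hint of pairing: deviations from group means correlated with a median of 0.0499 over 63 pairs of libraries with the same number (lowest -0.371) and -0.0345 over 126 pairs with different numbers, and 14 of 21 libraries correlated best with their own number. With the replicate number as a block, 0 of the calls for the 10 genes changed, the largest shift was 0.00185, and 2208 genes, against 2209, were called at 8 h minus 0 h. CPM per kilobase was not run, because no gene lengths of the build of the files were used. Counting error alone is 1.05% at the highest and 2.47% at the lowest count of the 10 genes. Both are below the median coefficient of variation of 2.52%, so that depth is a part of the spread.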
